A study of Mus musculus with 6 samples.

Results

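Spink1, Pla2g1b, Alox5ap, Cntnap2, Actn3, Rab33a and Zscan5b are 7 genes whose signal on bead arrays was lower when mouse embryonic stem cells carrying an inducible Sox17 were given doxycycline. They were picked from 8605 genes tested because their brightest probe was at least 2-fold lower with doxycycline in both Sox17-inducible lines, so this difference is described below and is not tested. Of all genes tested, 0.116% met that rule, 10 genes in number; the histone gene H3c7 and the Nodal inhibitor genes Lefty1 and Lefty2 met it too and are not described here. The 7 genes were read by 9 of the 25697 probes, 3 of them for Actn3 and 1 for each other gene, and all 9 passed the filter on dim probes (detection p under 0.05 on at least 2 arrays).

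The study measured total RNA on 6 Illumina MouseRef-8 v2 arrays. The groups were 2 Sox17-inducible lines with doxycycline (n = 2) and without it (n = 2), and the control embryonic stem cell line KH2, a line made to carry the doxycycline-responsive transactivator, with doxycycline (n = 1) and without it (n = 1). Every culture was grown without feeder cells in medium with serum and leukaemia inhibitory factor and was harvested after 5 days; the labels give the drug as 1 µg/mL for 5 days and word this for the inducible cells, so the dose of the KH2 culture was taken to be the same. Each line gave 1 array per state, the inducible line whose label carries no number is called line 1, and the labels do not say which construct or promoter the lines carry or whether they came from KH2.

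Between 43.7% and 46.5% of probes were detected on an array, with a median of 38 to 40 beads behind a probe, and correlations between arrays ran from 0.968 to 0.989 across the tested probes. All 10 embryonic stem cell markers (Pou5f1, Nanog, Sox2 and others) were detected on all 6 arrays, with summed normalised signal of 70439 and 71329 in the untreated inducible lines, 78264 and 74965 on their induced arrays, and 67628 and 64951 in KH2 without and with the drug. The sum mostly follows its brightest genes, such as Dppa5a (log2 signal 14.99 in untreated line 1). By gene, signal with doxycycline was lower in both inducible lines for 2 of the 10, Nanog and Sox2. For 2, Pou5f1 and Esrrb, it was higher in both. Of all genes tested, 31.3% were lower and 29.3% higher in both. The summed signal of the 7 tested extraembryonic endoderm markers was 2926 and 7238 in untreated lines 1 and 2, 7071 and 11416 once induced, and 3867 and 4726 in KH2. The brighter Sox17 probe read 5.26 and 5.61 (log2 signal, untreated and with doxycycline) for line 1, 5.60 and 6.47 for line 2, and 5.20 and 5.31 for KH2, and it was detected on 1 array, induced line 2. Where it lies in the transcript was not given, so it need not read the inducible copy and does not check the labels.

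The members do not form a known pathway. Spink1 (also known as Spink3 in the mouse) and Pla2g1b encode secreted proteins best known from the exocrine pancreas, a trypsin inhibitor of the Kazal type and a phospholipase A2 that digests phospholipids. Alox5ap encodes the membrane protein that presents arachidonic acid to 5-lipoxygenase, the first enzyme of leukotriene synthesis, and is best known in myeloid cells. Actn3 is the alpha-actinin of fast muscle fibres, which crosslinks actin at the Z-disc, Cntnap2 is a neurexin-like adhesion protein that clusters potassium channels on axons, Rab33a is a small GTPase of the Golgi and of vesicle transport, and Zscan5b encodes a zinc finger protein with a SCAN domain.

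Promoter windows from the RefSeq promoter table (build GRCm38.p6) were read for 3 of the 7 genes: Pla2g1b, Cntnap2 with 2 start sites, and Rab33a. Member windows on the chromosome that carries Spink1 were left out, so the Spink1 promoter was not read. The 250 bases before the start site are shown for Pla2g1b (chr5:115465892-115466141), for the downstream start site of Cntnap2 (chr6:47244146-47244395) and for Rab33a (chrX:48519035-48519284), all on the plus strand, because these genes were lower together and Sox17 is a DNA-binding factor. Capitals mark any match to the SOX core CATTGT or to the octamer ATGCAAA, on either strand.
Pla2g1b: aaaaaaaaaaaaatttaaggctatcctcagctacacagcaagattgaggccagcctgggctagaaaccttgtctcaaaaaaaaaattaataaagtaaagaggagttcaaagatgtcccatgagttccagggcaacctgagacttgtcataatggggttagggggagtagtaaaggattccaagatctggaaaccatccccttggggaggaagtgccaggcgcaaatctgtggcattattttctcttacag
Cntnap2: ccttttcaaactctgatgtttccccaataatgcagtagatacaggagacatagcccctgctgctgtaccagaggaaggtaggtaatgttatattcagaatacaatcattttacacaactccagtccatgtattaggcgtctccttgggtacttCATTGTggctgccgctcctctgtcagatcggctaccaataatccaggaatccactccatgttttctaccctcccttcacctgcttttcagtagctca
Rab33a: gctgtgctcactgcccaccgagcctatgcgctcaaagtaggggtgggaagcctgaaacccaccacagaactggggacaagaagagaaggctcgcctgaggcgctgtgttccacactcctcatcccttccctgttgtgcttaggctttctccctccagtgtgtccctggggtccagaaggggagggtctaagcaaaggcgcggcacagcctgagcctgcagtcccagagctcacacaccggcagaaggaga
The Cntnap2 window shown holds 1 SOX core, on the plus strand, whose first base lies 97 bases before the start site. It is the only match in the 4 member windows read, and which Cntnap2 start site the array probe reads was not given. The Pla2g1b and Rab33a windows and that of the other Cntnap2 start site (chr6:45059811-45060060) hold neither string. Among 32851 windows of the same length in the table, 10.7% hold the SOX core and 4.12% the octamer, and a match is a description of the letters, not of binding.

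Spink1, the pancreatic trypsin inhibitor, had the largest mean change of the 7 as processed here; with the authors' processed values Alox5ap (-1.82) passed it (-1.77). After background correction and quantile normalisation its log2 signal was 9.56 and 8.10 for line 1, 10.68 and 8.58 for line 2, and 9.62 and 9.86 for KH2, each pair being untreated and then with doxycycline. Both induced arrays lay below all 4 other arrays, and the drop was larger in line 2, which also started higher. In raw bead signal with its bead standard error, line 1 went from 802 ± 28.1 to 361 ± 15.2 intensity units and line 2 from 1604 ± 64.9 to 452 ± 25.9, while KH2 read 938 ± 38.4 without and 1081 ± 40.6 with the drug. The normalised change was -1.46 in line 1 and -2.10 in line 2, leaving 36.3% and 23.3% of the untreated signal, against 0.24 in KH2. Spink1 was well above background on every array. In these bulk samples, fewer cells with Spink1 RNA and less of it per cell cannot be told apart, and the same holds for every gene below.

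Pla2g1b, the pancreatic phospholipase, had the larger drop in line 1, unlike Spink1. Its log2 signal was 11.16 and 9.12 for line 1, 11.30 and 10.27 for line 2, and 11.77 and 11.72 for KH2 (untreated and with doxycycline). Line 2 minus line 1 was 0.14 untreated and 1.15 with doxycycline. Raw signal went from 2225 ± 135 to 645 ± 21.9 in line 1 and from 2391 ± 115 to 1270 ± 58.1 in line 2, whereas KH2 held 3814 ± 146 and 3912 ± 132. The change was -2.04 in line 1 and -1.03 in line 2, leaving 24.4% and 49.1% of the signal, and -0.05 in KH2. Pla2g1b was the only member whose 4 inducible arrays all lay below both KH2 arrays, an order seen in 11.6% of all genes. The rule chose the induced arrays among these to be low, which favours the order, so it is no separate finding.

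**Figure D1:**
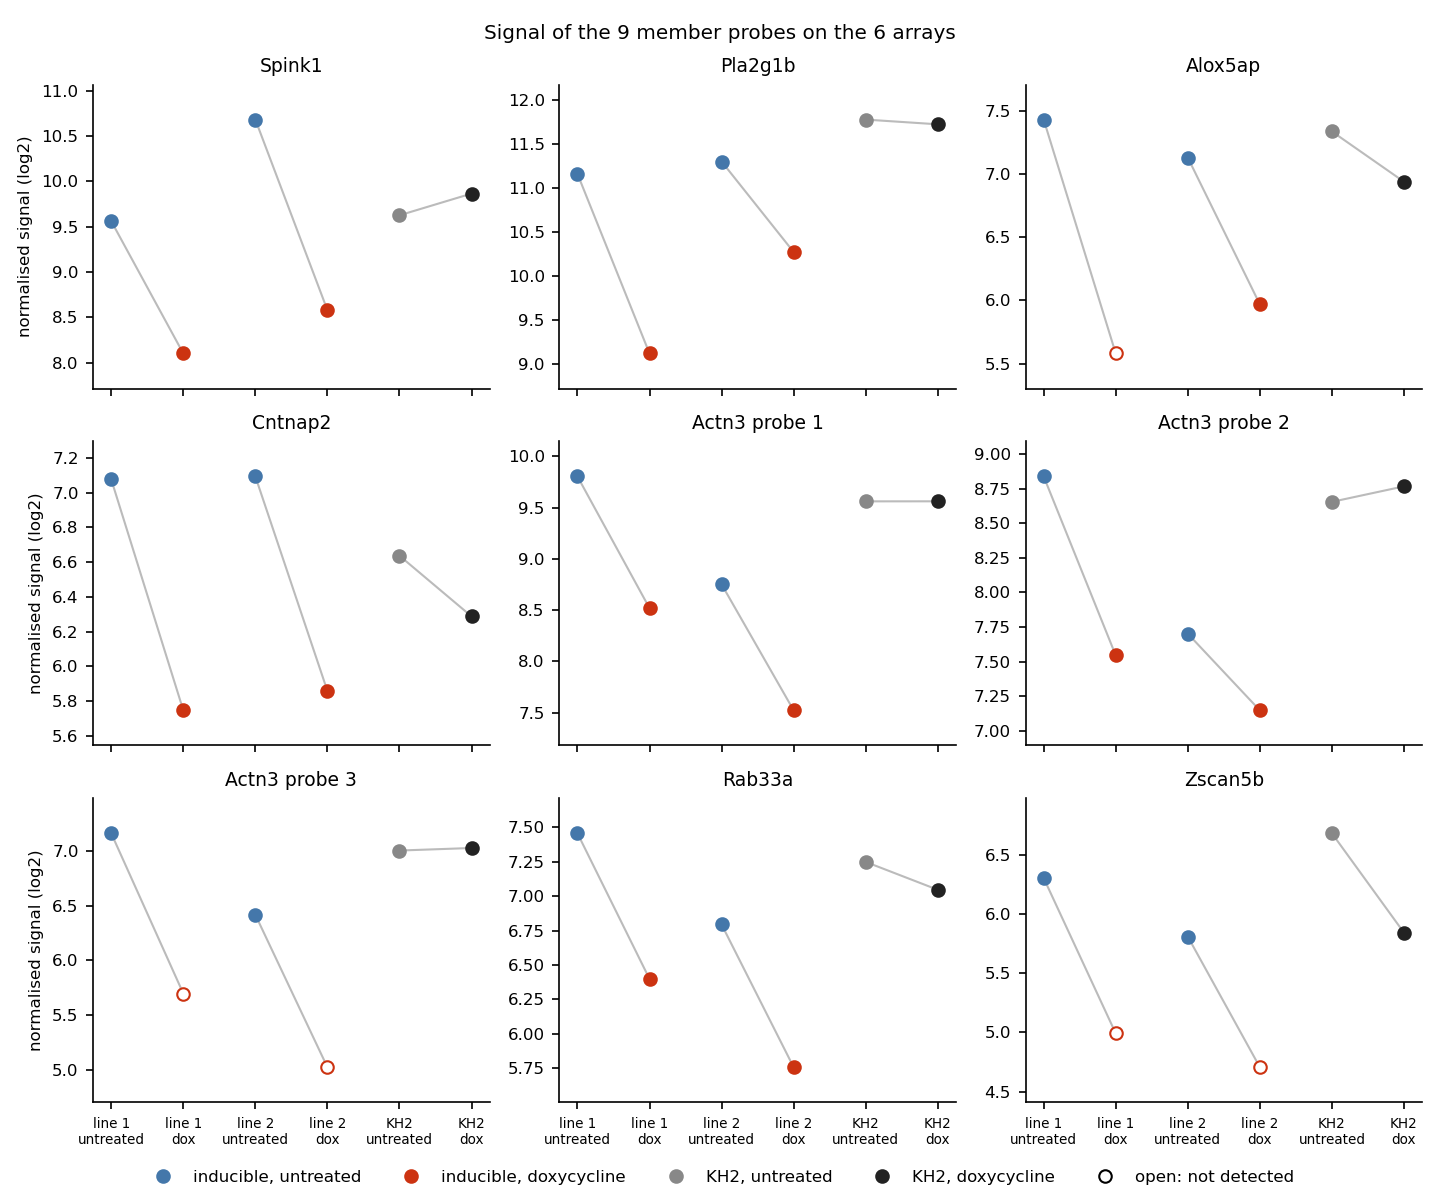
Normalised log2 signal of the 9 probes of the 7 genes (vertical axis, its own range in each panel) on the 6 arrays (horizontal axis), with a grey line joining the arrays of a line and open points for arrays where the probe was not detected. In every panel the induced arrays of lines 1 and 2 are the lowest of the 6, and Spink1 and Pla2g1b are detected on all arrays.

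The lists of genes around these secreted proteins were mostly silent. Of 21 pancreatic digestive enzyme genes, 18 were on the array, 15 were detected on no array and 2 were tested: the chymotrypsin-like gene Ctrl (-0.89, -0.37 and -0.19 for line 1, line 2 and KH2) and the elastase gene Cela2a (-0.51, -0.40 and -0.37). Cela2a was detected on 3 arrays. Of 10 pancreatic acinar markers, 8 were on the array, 5 of these, among them the acinar transcription factor gene Ptf1a, were detected on no array, and the 2 tested were Nr5a2 (-0.58, -0.68 and -0.36) and Bhlha15 (-0.75, 0.26 and 0.20). Summed over those 2, normalised signal was 417 and 273 for line 1, 247 and 186 for line 2, and 297 and 251 for KH2 (untreated, then with doxycycline). The sum was lower on the doxycycline array of all 3 lines, but Bhlha15 alone was higher in line 2 and KH2. Nr5a2 was the brighter of the 2 on every array (log2 signal 8.34 against 6.55 in untreated line 1), so the sum mostly follows it. The part of this sum in the Spink1 and Pla2g1b values was not tested. The other Kazal inhibitor that could be tested, Spink2, read -0.80, -0.60 and -0.60, so it was lower in KH2 too. Spink2 was detected on 3 arrays. Its induced signals of 5.00 and 5.12 lay below 5.70, the lowest detected signal on the induced arrays. In its list of 15 protease inhibitors 3 were tested, with median changes of -0.04, -0.05 and -0.15; the collagen chaperone gene Serpinh1 read 0.56, 0.47 and 0.58, and Serpinb6a -0.04, -0.05 and -0.15.

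Other phospholipase A2 genes were lower in some cases and higher in others. Of 16 listed, 8 were tested, with median changes of -0.09 for line 1, 0.07 for line 2 and -0.01 for KH2; 3 were lower in both inducible lines and 2 higher in both. Of all genes tested, 31.3% were lower in both lines and 29.3% higher in both. The secreted enzyme gene Pla2g12a read -0.46 and -0.45, the lysosomal Pla2g15 0.49 and 0.36, and Pla2g5 0.28 and 0.44. In KH2 these 3 read -0.26, -0.03 and -0.09. Pla2g5 was detected on 2 arrays.

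Alox5ap, the leukotriene synthesis protein, was close to background on the doxycycline arrays of the inducible lines, and was detected on both KH2 arrays. Its log2 signal was 7.43 and 5.58 for line 1, 7.13 and 5.97 for line 2, and 7.34 and 6.94 for KH2. The untreated arrays of all 3 lines lay within 0.30 of each other, and the induced arrays were the lowest. The probe was not detected on the induced array of line 1 (detection value 0.0689, where under 0.05 counts as detected) and was detected on that of line 2 (0.0226), so the change of -1.85 in line 1 ends at a level that is not well above background. It was -1.16 in line 2 and -0.40 in KH2. Raw signal was 241 ± 11.1 and 124 ± 4.88 for line 1, 201 ± 10.5 and 138 ± 6.80 for line 2, and 259 ± 14.4 and 213 ± 7.47 in KH2.

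The rest of the eicosanoid pathway was either undetected or had medians near 0 in the inducible lines. Alox5, the 5-lipoxygenase that Alox5ap serves, and Ltc4s, the leukotriene C4 synthase, were detected on no array. Of 22 listed genes 10 were tested, with medians of -0.06, 0.01 and 0.27 for line 1, line 2 and KH2, 4 lower in both inducible lines and 4 higher in both (31.3% and 29.3% of all genes). The microsomal glutathione transferase gene Mgst1, of the same protein family as Alox5ap, read -0.59, -0.15 and -0.59, the leukotriene B4 receptor gene Ltb4r1 -0.59, -0.08 and 0.11, and the leukotriene A4 hydrolase gene Lta4h 0.19, 0.37 and 0.65. Of 10 myeloid markers 8 were on the array and 0 of these were detected on any array, Ptprc, Spi1 and Itgam among them.

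Actn3, the fast-muscle alpha-actinin, was read by 3 probes. The brightest gave log2 signals of 9.80 and 8.52 for line 1, 8.75 and 7.52 for line 2, and 9.56 and 9.56 for KH2. Line 2 minus line 1 was -1.05 untreated and -0.996 with doxycycline, so that untreated line 2 came close to induced line 1. The change was -1.28 for line 1, -1.23 for line 2 and 0.00 for KH2. The other probes share the gene and are no replicates of it: the middle probe gave -1.29 and -0.55 (0.11 in KH2) and the dimmest -1.47 and -1.40 (0.02 in KH2). All 3 probes ordered the arrays the same way, from induced line 2, the lowest, to untreated line 1, the highest, but the middle probe was under 2-fold in line 2. The dimmest probe was detected on neither induced array. Averaged over both lines, this puts it at least 2.12-fold below the untreated signal. That bound is set against the lowest signal among detected probes on the induced arrays.

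The other alpha-actinin genes had smaller differences, of both signs. Actn1 and Actn4, the non-muscle forms, read 0.36 and 0.24, and 0.36 and 0.63, with -0.11 and 0.12 in KH2, and the muscle form Actn2 read -0.51 and -0.43 (-0.29 in KH2) and was detected on 2 arrays. Of 17 actinin and Z-disc genes 7 were tested, with medians of 0.33, 0.22 and -0.05 for line 1, line 2 and KH2; the Z-disc adaptor gene Pdlim3 read -0.96, -0.14 and -0.17. Skeletal muscle markers were partly present: of 10, 9 were on the array, 5 were tested and 4, among them the muscle determination genes Myod1 and Myf5, were detected on no array. The 5 tested summed to 2862 and 2358 for line 1, 3662 and 3541 for line 2, and 4432 and 7786 for KH2. In both inducible lines 2 of the 5 were lower and 2 higher (31.3% and 29.3% of all genes), and the list's medians were -0.15, 0.37 and 0.71. The fast troponin gene Tnni2 read -1.002, -0.58 and 0.32 and the fast myosin light chain gene Mylpf -0.47, -0.48 and 0.86, while the muscle regulator gene Myog read 0.60, 0.43 and 0.21 and the skeletal actin gene Acta1 0.03, 0.37 and 0.82. Tnni2 was detected on 4 arrays, with induced signals of 5.14 and 5.19, and Myog on 2 arrays. The part of these muscle markers in the Actn3 values was not tested.

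Cntnap2, the axonal adhesion protein, differed least between the lines in level. Its log2 signal was 7.08 and 5.75 for line 1, 7.09 and 5.86 for line 2, and 6.64 and 6.29 for KH2. The untreated lines were within 0.02 of each other and above both KH2 arrays, while both induced arrays were below them. The change was -1.33, -1.23 and -0.35 for line 1, line 2 and KH2. The induced arrays were only just detected (detection values 0.0464 and 0.0338), at raw signals of 131 ± 5.89 and 134 ± 5.62 against 205 ± 14.3 and 198 ± 9.39 untreated.

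Little else of the contactin-associated group could be read. Of 15 genes 12 were on the array, 10 of these were detected on no array, Cntnap1, Cntnap4 and Kcna1 among them, and 1 was tested: the membrane skeleton gene Epb41l3 at 0.04, -0.10 and -0.36. Of 10 neuron markers 6 were tested, 4 of them lower and 1 higher in both inducible lines (31.3% and 29.3% of all genes), with medians of -0.63, -0.31 and -0.13. Rbfox3, a splicing factor of mature neurons, read -1.19, -0.59 and 0.06, the neuronal tubulin gene Tubb3 0.05, 0.46 and 0.34, and the growth cone gene Gap43 -0.85, -0.22 and -0.45. Tubb3 was detected on 2 arrays. Summed normalised signal of these 6 was 2369 and 1750 for line 1, 2173 and 1690 for line 2, and 2103 and 1789 for KH2, and the synaptic genes Snap25 and Syt1 were detected on no array. These sums were lower on all 3 doxycycline arrays, and their part in the Cntnap2 values was not tested. The sums mostly follow Stmn2, the brightest of the 6 on every array (log2 signal 10.76 against 7.91 for Gap43 in untreated line 1).

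Rab33a, the Golgi GTPase, sat closest to the threshold of the rule together with Pla2g1b in line 2. Its log2 signal was 7.46 and 6.40 for line 1, 6.79 and 5.76 for line 2, and 7.25 and 7.05 for KH2. It was detected on all 6 arrays, but only just on induced line 2 (detection value 0.0414, raw signal 129 ± 6.37). As for Actn3, line 2 stood below line 1 in both states (line 2 minus line 1 was -0.66 untreated and -0.64 with doxycycline). The change was -1.06 for line 1, -1.04 for line 2 and -0.20 for KH2. Its closest relative Rab33b, which like Rab33a binds the autophagy protein encoded by Atg16l1, read -0.01, 0.11 and -0.52, and Atg16l1 0.01, 0.19 and -0.14. Of 17 genes of Rab33 partners, autophagy conjugation and common Rabs, 14 were tested, with medians of 0.13, 0.10 and -0.25, 1 lower and 5 higher in both lines (31.3% and 29.3% of all genes). The neuronal Golgi gene Rab6b was the exception in size, higher by 0.89 and 1.34 (0.26 in KH2), while Atg10 read -0.60 and -0.26 and Atg12 0.49 and 0.29.

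Zscan5b, the SCAN zinc finger gene, was the dimmest member. Its log2 signal was 6.30 and 4.99 for line 1, 5.81 and 4.71 for line 2, and 6.68 and 5.84 for KH2. The induced arrays were not detected (detection values 0.298 and 0.791), so the fitted changes of -1.31 and -1.10 run into background. Averaged over both lines, the probe was at least 1.28-fold below the untreated signal. Untreated line 2 was itself only just detected (0.0376). It read -0.84 in KH2, the largest KH2 change of the 7. Raw signal in KH2 went from 194 ± 11.4 to 147 ± 9.16. Of 24 related SCAN genes 11 were tested, 6 lower and 1 higher in both lines (31.3% and 29.3% of all genes), with medians of -0.11, -0.12 and -0.09; Zscan4c, a gene of a rare state of embryonic stem cells, read -1.54, -0.17 and -0.94 and was detected on 2 arrays, Zscan20 read -0.39, -0.46 and -0.09, and Zscan12 -0.49, -0.30 and -0.17.

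**Figure D2:**
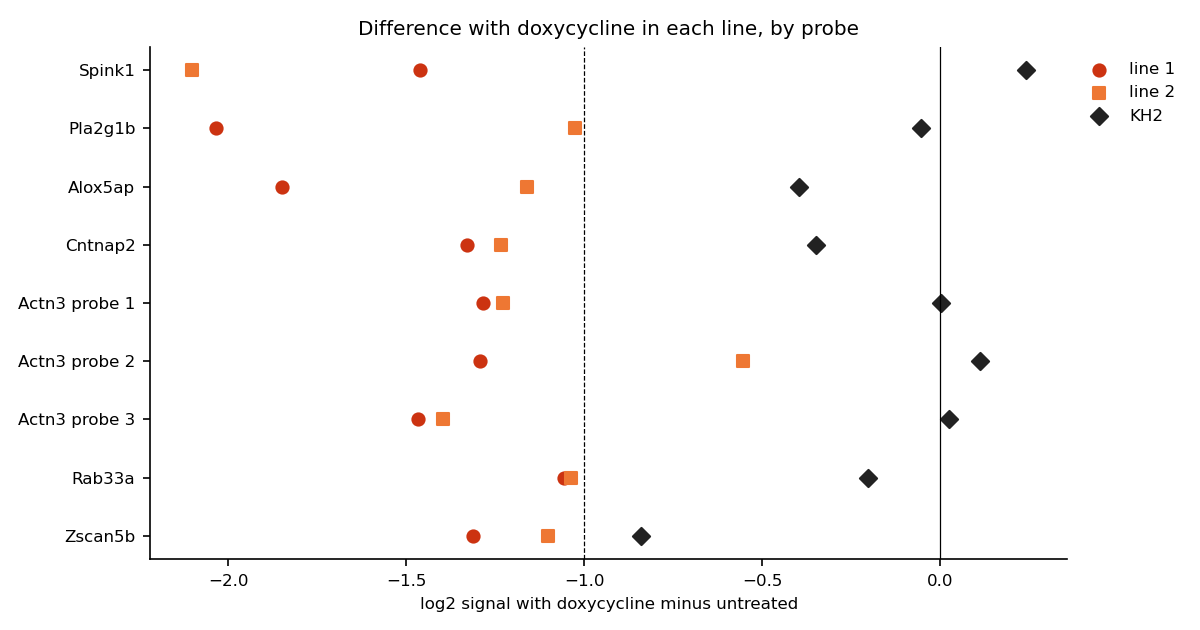
Log2 signal with doxycycline minus untreated (horizontal axis) for each probe of the 7 genes (vertical axis) for line 1, line 2 and KH2, with a dashed line at the 2-fold rule of -1. The KH2 points lie between -0.84 (Zscan5b) and 0.24 (Spink1), to the right of both inducible lines for every probe. The rule put the brightest probes of the inducible lines at or below -1, where 1.52% of all genes lay in KH2. This order is therefore no separate finding.

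The KH2 arrays took no part in choosing the genes, and they ask whether the drug alone went with the same differences. By the brightest probe, 0 of 7 genes were at least 2-fold lower in KH2, against 1.52% of all genes tested, and 0 were 2-fold higher, against 0.488%. With shares this small most sets of 7 genes would give 0, so these counts do not set the 7 apart from other genes. The 7 values ran from -0.84 to 0.24 with a median of -0.20, where all genes had a median of 0.02; 5 were below 0, against 47.9% of all genes. With median scaling Pla2g1b was at 0.03 and Actn3 at -0.06. In the limma fit with 4 group means, where single KH2 arrays are assumed to vary like the inducible lines, 0 of the 7 passed for doxycycline in KH2 and 0% of all probes did, with 579 probes and 0 of the 7 genes at an unadjusted p under 0.05. The nearest was Zscan5b at -0.84 ± 0.35 (SE, adjusted p = 0.838). In raw bead signal the KH2 difference was -3.26 times its bead standard error for Zscan5b, -2.87 for Alox5ap, 2.55 for Spink1 and -2.06 for Cntnap2, and within 1.43 standard errors for Pla2g1b, Actn3 and Rab33a. In the inducible lines the same ratio was 4.59 to 16.5 in size for the brightest probes, whose drops the rule chose to be large. The middle Actn3 probe was at -3.10 in line 2. These errors cover the beads of an array and not the spread between cultures.

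All 7 genes had both induced arrays below the other 4 arrays, an order found in 8.89% of all genes. The rule put each induced array at least 2-fold below its own untreated array, which favours this order, so the order is no separate finding. The rule did not use the untreated array of the other line or KH2 as the reference for an induced array. The smaller drop of the lines was -1.03 for Pla2g1b and -1.04 for Rab33a, just inside the threshold. Just outside it were Pinx1, a telomerase inhibitor gene (-0.96 and -1.02), Rasgrp1, a Ras activator gene (-1.77 and -0.92, and -0.96 in KH2), and Rbp7, a retinoid-binding protein gene (-1.11 and -0.91). In line 1 alone 1.21% of genes were at least 2-fold lower, and in line 2 alone 0.43%.

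**Figure D3:**
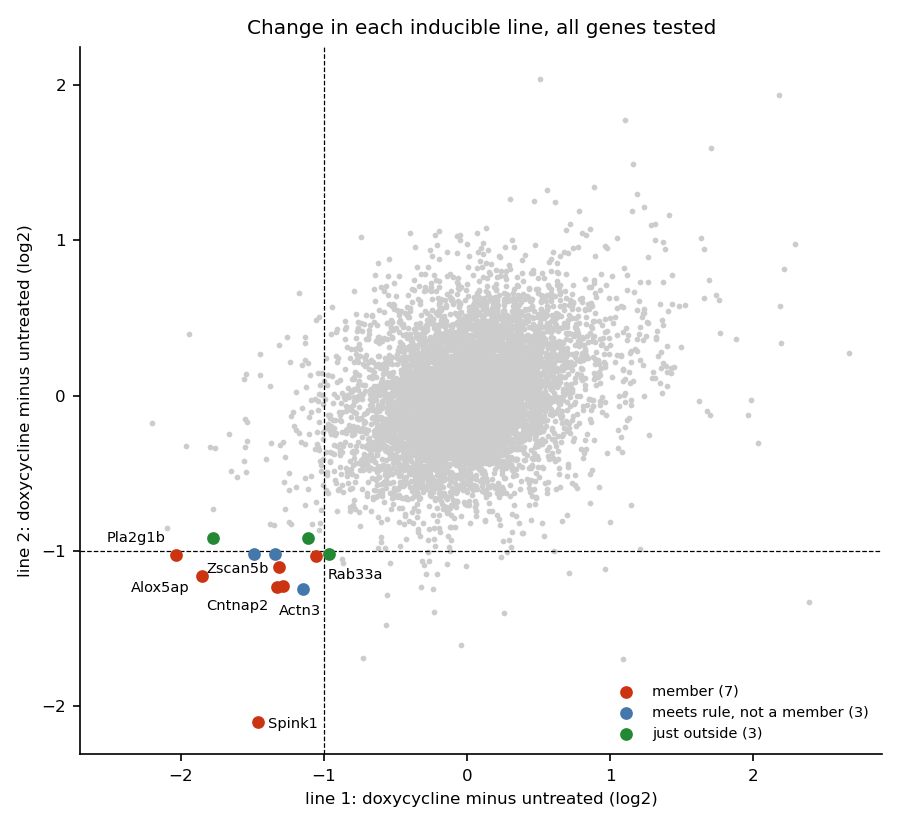
Log2 signal with doxycycline minus untreated in line 1 (horizontal axis) and line 2 (vertical axis) for the 8605 genes tested, with dashed lines at -1. The 7 genes described lie in the lower left corner with 3 others that met the rule, and Spink1 (-1.46 and -2.10) lies apart from the rest of that corner.

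The level in the inducible lines was then compared with KH2, averaging over both states. The difference was -1.28 ± 0.33 (SE) for Pla2g1b, -0.91 ± 0.39 for the brightest Actn3 probe, -0.81 ± 0.21 for Zscan5b, -0.61 ± 0.20 for Alox5ap, -0.55 ± 0.28 for Rab33a, -0.51 ± 0.34 for Spink1 and -0.02 ± 0.17 for Cntnap2 (n = 4 arrays against 2). Leaving out 1 inducible array moved Spink1 by over 1.5 times, to -0.23 without untreated line 1 and -0.80 without untreated line 2. None of the 7 passed the limma test, with a smallest adjusted p of 0.395, for Pla2g1b. By that test 0.00808% of the 12373 probes passed, which was 1 probe, of the Y-linked gene Eif2s3y, and 1262 reached an unadjusted p under 0.05. All 7 were below 0, as were 50.5% of all genes, but this mean takes in the induced arrays that the rule chose to be low, so the sign is no separate finding.

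With line as a block, 3 of the 7 passed: Pla2g1b (adjusted p = 0.0338), Actn3 (0.0321) and Zscan5b (0.0383), with 2.59% of all probes passing in either direction and 1.43% lower. The block takes the difference between lines 1 and 2 out of the error, so these p-values hold for the 3 lines measured, and the 1 residual degree of freedom left is the difference between the drops of the lines, which the rule also used. The contrast itself takes in the induced arrays that the rule chose to be low, and Zscan5b was undetected on both, so these calls are no evidence apart from the drop. Before induction the differences from KH2 had both signs. Those with doxycycline rest on the induced arrays that the rule chose to be low, so they are no separate finding. On untreated arrays the difference ran from -0.63 ± 0.30 (SE) for Zscan5b to 0.50 ± 0.48 for Spink1 (limma, adjusted p = 0.9999 for each), and on doxycycline arrays from -2.02 ± 0.46 for Pla2g1b to -0.49 ± 0.23 for Cntnap2 (smallest adjusted p = 0.395).

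**Figure D4:**
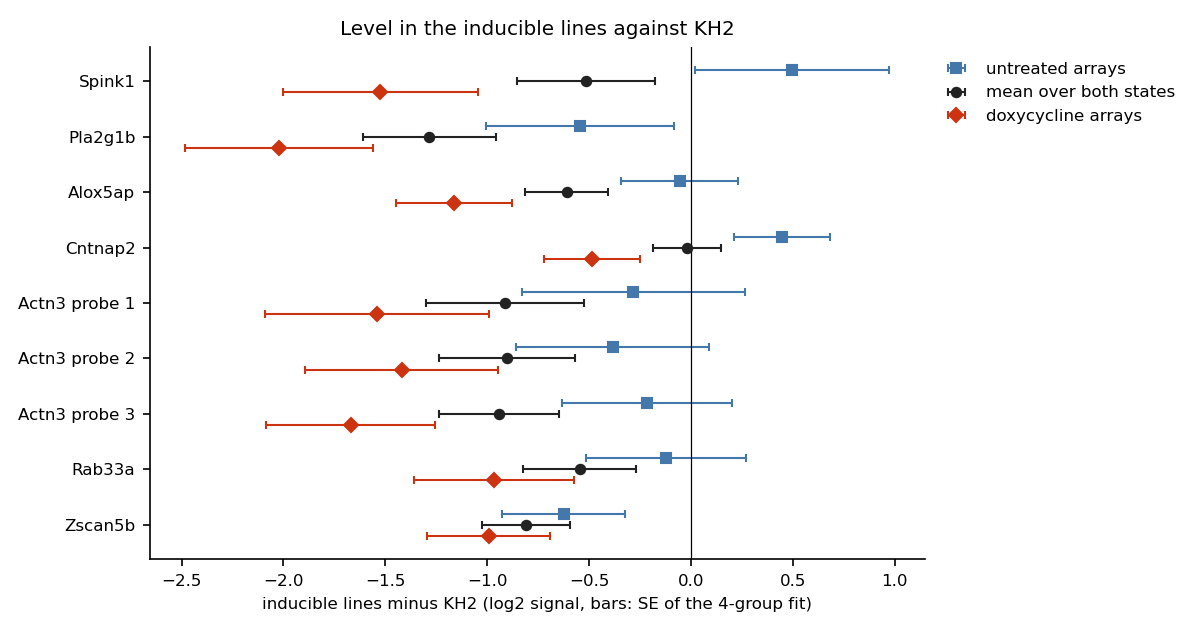
Log2 signal of the inducible lines minus KH2 (horizontal axis) for each probe (vertical axis) on untreated arrays, on doxycycline arrays and as the mean over both states; bars are the standard error of the fit with 4 group means. The untreated differences lie on both sides of 0, from -0.63 to 0.50, and the doxycycline differences all lie below 0. The rule chose the induced arrays to be low, which favours the latter.

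For the level against KH2, 3 related genes passed with line as a block and 0 without it. They were the Z-disc adaptor genes Pdlim3 (-1.11 ± 0.19 (SE), limma, adjusted p = 0.0349) and Pdlim7 (-0.70 ± 0.14, 0.0494) and the SCAN gene Zscan20 (-0.72 ± 0.14, 0.0470), all lower in the inducible lines. That fit had an unadjusted p under 0.05 for 25% of the 56 related genes and for 22.3% of all probes. Without a block, over the 56 related genes tested, limma called 0 for doxycycline in the inducible lines and 0 for the level against KH2; for doxycycline it called 0% of all 12373 probes, with 528 probes and 3 of the 56 genes at an unadjusted p under 0.05. These are 5.36% of the 56 and 4.27% of all probes. With line as a block it called 1 probe, of Gata6, and 0 of the 56, with 14 of the 56 (25%) and 13.6% of all probes at an unadjusted p under 0.05. Of the 56, 0 met the 2-fold rule in both lines.

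The 7 genes did not share 1 profile over the 6 arrays. The root mean square difference between mean-centred log2 profiles was smallest for Actn3 and Rab33a (0.25) and for Rab33a and Zscan5b (0.26), and largest for Spink1 and Actn3 (0.81). Spink1 was highest in untreated line 2, Pla2g1b and Zscan5b in untreated KH2, Cntnap2 in untreated line 2, and Actn3, Rab33a and Alox5ap in untreated line 1. By the same measure the genes nearest to each member, over 6 arrays and taken from all genes tested, were as follows. Rab33a had Pinx1 at 0.08, Nfkbid at 0.14 and Nod1 at 0.15. Cntnap2 had Rbp7 at 0.14, Mzb1 at 0.21 and Mfap2 at 0.24. Zscan5b had Sfrp2 and Rasgrp1 at 0.20 and Pinx1 at 0.22. Alox5ap had Slc25a41 at 0.21, Fgd2 at 0.24 and Cdkn1c at 0.27. Actn3 had Nefh at 0.22, H3c7 at 0.22 and Etv2 at 0.26. The measure grows with the size of the differences, which were large for Pla2g1b and Spink1. Their closest were Ly6h (0.37), Rem2 (0.39) and Fgd2 (0.40) for Pla2g1b, and Gstt1 (0.47), Aldh3a1 (0.49) and H4c3 (0.49) for Spink1.

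The size of the drop depended on how background was handled for the dim members. Without background correction the mean change over both lines was -0.82 for Alox5ap, -0.68 for Cntnap2, -0.58 for Rab33a and -0.71 for Zscan5b, against -1.50, -1.28, -1.05 and -1.21 as reported, and with the authors' processed values it was -1.82, -1.56, -1.23 and -1.76. For the bright members it moved little: Spink1 was between -1.78 and -1.57, Pla2g1b between -1.53 and -1.44 and Actn3 between -1.26 and -1.04 over the 5 ways of processing plotted.

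**Figure D5:**
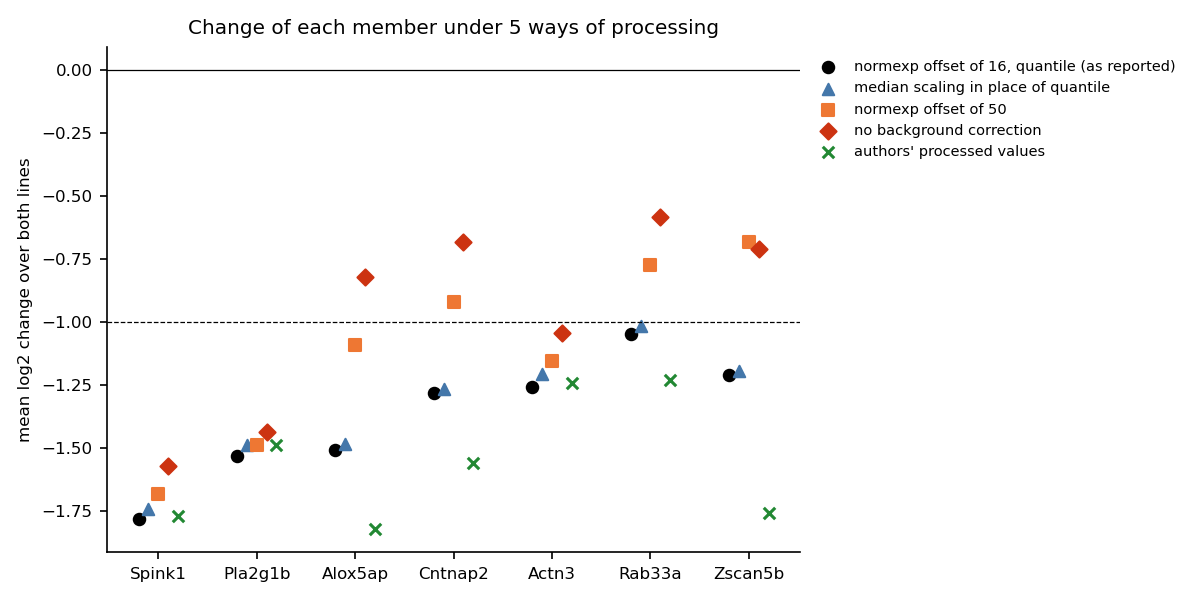
Mean log2 change over both inducible lines (vertical axis) for each of the 7 genes (horizontal axis) under 5 ways of processing, with a dashed line at the 2-fold rule. All points lie below 0; without background correction Spink1, Pla2g1b and Actn3 stay below -1 in the mean, and Alox5ap, Cntnap2, Rab33a and Zscan5b lie between -0.82 and -0.58.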

How the data were processed

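Biotin-labelled RNA from 6 cultures was read on bead arrays. Per the file headers, the deposited raw table gives each probe's mean bead signal as an intensity, the standard error over its beads, also an intensity, the count of beads and a detection p-value; the deposited second table holds intensity values that the authors processed in BeadStudio (per the submitters' processing notes), by a method not given in the sources used here. Raw signal was corrected by normexp with background inferred from detection p-values (offset 16), quantile-normalised and set on the log2 scale (neqc, limma 3.58.1, R 4.3.3). The tests kept 12373 of 25697 probes, those detected (p-value under 0.05) on 2 or more arrays, a gene being read by its brightest tested probe. Platform symbols were updated by Entrez number; 16 numbers were not matched and 1719 probes had no symbol.

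Levels were tested with limma (4 group means, 2 residual degrees of freedom, two-sided, Benjamini-Hochberg over tested probes, threshold 0.05). The KH2 arrays, 1 a group, were assumed to vary like the inducible lines, and 1 of the residual degrees of freedom is the difference between the drops of lines 1 and 2. The spread is between cultures of different lines. Arrays are paired by line because the labels name it. The code was tested on simulated data. Members and lists were chosen with earlier results of these data known. Named genes were the members, genes at the rule's edge, genes that passed a test and the 3 nearest profiles. Each list of related genes gave up to 3 genes with the largest mean change, plus the member's family. Cell type markers and undetected genes were named as examples, by no such rule. The number of arrays limits the precision.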

Additional observations from a re-analysis of the deposited data

Results flagged for a closer look

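Spink1 and Actn3 were singled out because both inducible lines were lower with doxycycline while KH2 was not. Spink1 read 0.24 (log2 change) in KH2 against -1.46 and -2.10 in the inducible lines, and Actn3 read 0.000403 in KH2 against -1.28 and -1.23. With median scaling the Actn3 value was -0.06, and in raw signal the KH2 difference was -0.55 times the bead standard error of the raw signal. The difference between KH2 and the inducible lines was not tested, since the inducible lines' change chose the genes. No group held enough arrays to look for an outlying one.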

How the results depend on the processing

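All 7 genes were at least 2-fold lower in both inducible lines with median scaling and with the authors' processed values. Dropping the filter, averaging probes (which bears on Actn3 alone) and taking either line alone also gave 7, but for most genes these could not change the count by construction. Without background correction 1 gene, Spink1, was 2-fold lower in both lines (1 in all, against 10 as reported), and 3, Spink1, Pla2g1b and Actn3, with a normexp offset of 50 (of 4 in all); the authors' values gave 29 in all. The number of genes at least 2-fold lower in KH2 was 131, and 18, 44 and 225 with no background correction, the offset of 50 and the authors' values, with 0 of the 7 in each. For the level against KH2, 0 of the 7 passed in all but the fit with the replicate block, where 3 did (321 probes in all, against 1); without the untreated array of line 1 33 probes passed, and the lowest adjusted p of a member was 0.142 to 0.539 when an inducible array was left out. The block changed no other call on the 7 genes, and it added 3 related genes. The test of doxycycline in KH2 and the blocked test of related genes were added after seeing the data. Signs that turned were those of Cntnap2, at 0.0193 without background correction, 0.0132 with the offset of 50 and 0.45 on untreated arrays, and of Spink1, at 0.50 on untreated arrays. Leaving out 1 inducible array at a time put Cntnap2 between -0.0466 and 0.00928, the latter without induced line 1, and Spink1 between -0.80 and -0.23. The cause was not tested. Signal over background limits Alox5ap and Zscan5b, undetected on 1 and 2 induced arrays, and also Cntnap2 and Rab33a. Cntnap2 was only just detected on both induced arrays, and Rab33a on that of line 2.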
